A study of Mus musculus with 6 samples.

Results

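The genes that decide whether a cell leaves G1 were compared between CT26.mMR1 cells and the mutant M8. The 10 genes were the kinases Cdk4 and Cdk6, the D-type cyclins Ccnd1, Ccnd2 and Ccnd3, the E-type cyclin Ccne1, and the inhibitors Cdkn2a, Cdkn2b, Cdkn2c and Cdkn1b. They were taken by symbol from 24346 gene symbols, and all 10 had a row in each of the 6 samples. CT26 is a mouse colorectal tumor line, and CT26.mMR1 cells carry mouse MR1, an antigen-presenting molecule of the MHC class I family, after retroviral transduction. M8 was derived from these MR1-overexpressing cells by treatment with the chemical mutagen N-ethyl-N-nitrosourea (ENU) and cloned by limiting dilution. It is therefore 1 clone and shares the MR1 transgene with its parent. The study screened such mutants for activation of reporter cells with a mucosal-associated invariant T (MAIT) cell receptor and for surface MR1. M8 was chosen because it was higher than its parent in both. The labels give colon as the tissue of both lines. The sample titles of both carry CT26_cl9, and whether cl9 names a clone is not said in the sources used here. RNA was sequenced from 3 samples of each line. The study calls the RNA sequencing samples of each line biological replicates, without saying how they were grown apart. The p-values measure the spread between these samples, and a difference between the lines is one between 1 mutant clone and the cells it was derived from.

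In G1, D-type cyclins bind Cdk4 or Cdk6, and the active kinase phosphorylates the retinoblastoma protein Rb1 and its relatives, which releases E2F transcription factors. E2F factors then switch on genes of S phase, among them Ccne1, whose product activates Cdk2. The INK4 inhibitors bind Cdk4 and Cdk6 directly and keep D-type cyclins from binding: p16Ink4a comes from Cdkn2a, p15 from Cdkn2b, p18 from Cdkn2c and p19Ink4d from Cdkn2d. The KIP inhibitors p27 (Cdkn1b) and p21 (Cdkn1a) bind cyclin-kinase complexes. Cdkn2a also encodes p19Arf, an activator of p53, from a second promoter and another reading frame. CT26 has been described as a line with a homozygous deletion of Cdkn2a, but DNA was not read here and the state of the locus in these samples was not tested.

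The values were FPKM, fragment counts scaled by the exon length of a gene and by the mapped fragments of the library, so that levels of different genes could be set side by side. Each sample summed to between 593635 and 630264 FPKM, the sums of 2 of the 3 parental samples lay below those of all M8 samples, and the number of reads behind each value is not given in the files. Most markers of colon epithelium were at or near 0 in both lines. Of 10 such markers, Epcam, Cdh1, Krt19 and Cdx2 were listed at 0 in all 6 samples, and only Krt18 (24.5 to 38.4 FPKM) and Krt20 (10.8 to 19.8 FPKM) had a mean of at least 1 FPKM. Krt20 fell by 0.50 on the log2 scale in M8 (limma adjusted p = 0.00438), and its part in the changes of the G1 genes was not tested. Of 5 mesenchymal markers, Vim, Col1a2, Col1a1 and Pdgfrb were detected in every sample, Vim at 1920 ± 197 FPKM in the parental line and 2010 ± 43.9 FPKM in M8 (SD, n = 3 each), while Acta2 was between 0 and 0.0177 FPKM. Pdgfrb rose by 0.25 (limma adjusted p = 0.00787). Summed leukocyte markers were at 0.0101 to 0.0497 FPKM in every sample, and summed endothelial markers at 0 to 0.0524 FPKM.

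Of the 10 genes, 8 had a mean of at least 1 FPKM over the 6 samples and were tested, with limma on log2(FPKM + 1) and Benjamini-Hochberg adjustment over all 10597 genes that passed this filter. At an adjusted p below 0.1, Cdk4, Ccnd1 and Ccnd2 were higher in M8 (3 of 8), none was lower, and 5 were not called. Over all genes tested, 21.2% were called higher and 16.5% lower. The same 3 genes had all 3 M8 values above all 3 parental values, a pattern seen in 24.8% of all genes tested, and none of the 8 had all M8 values below the parental ones, as 20.4% of all genes did. Their median log2 fold change was 0.050, against 0.0069 over all genes. In both lines and in each sample, the level fell in the order Cdk4, Ccnd1, Ccnd3, Ccnd2, Cdkn2c, Ccne1, Cdkn1b and Cdk6, and no gene's range over the 6 samples overlapped that of its neighbour in this order. The remaining inhibitors, Cdkn2a and Cdkn2b, were listed at 0 in all 6 samples.

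**Figure D1:**
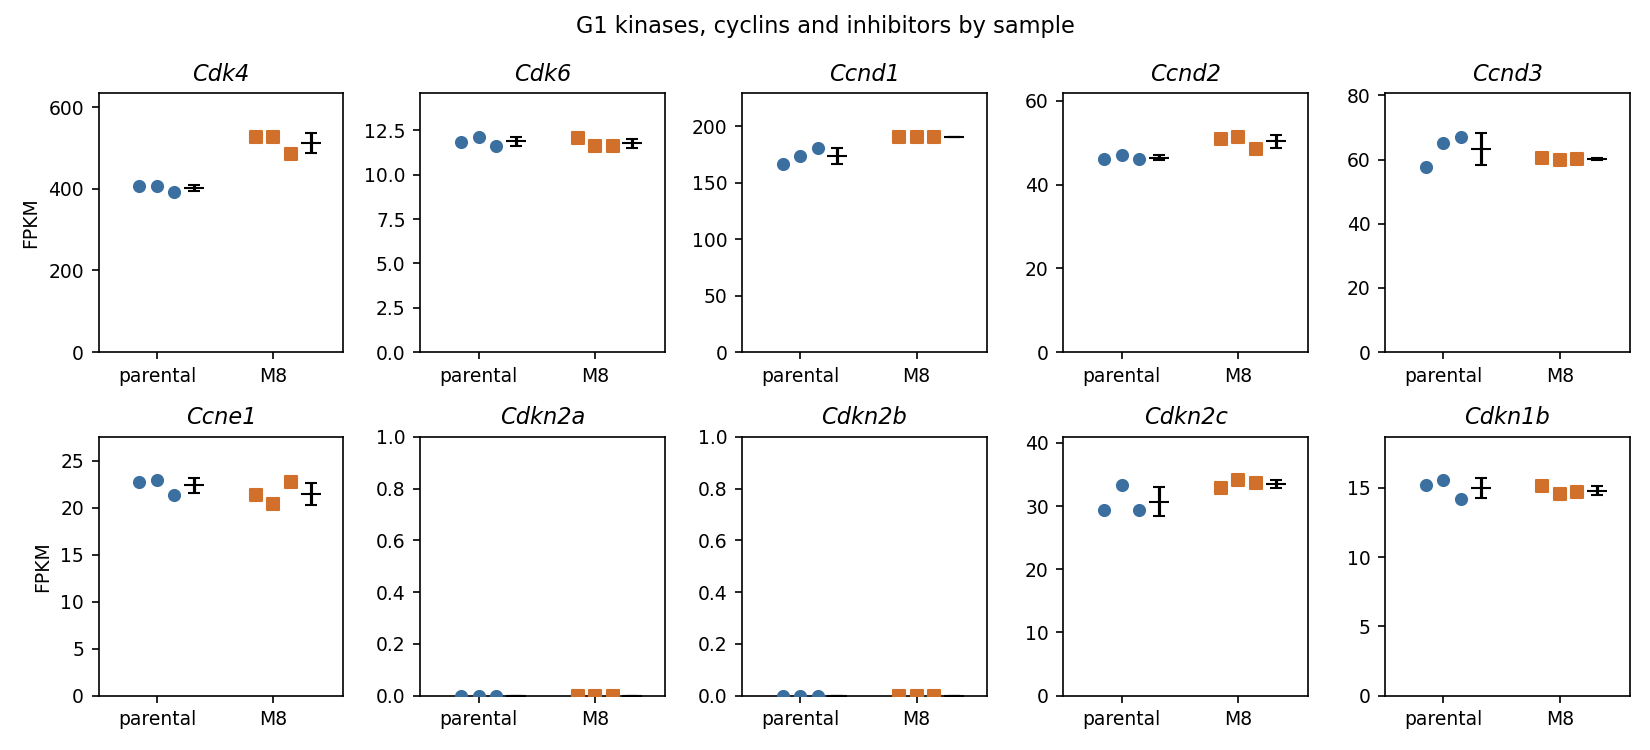
FPKM of each of the 10 genes (vertical axes, each from 0 with its own range) in the 3 parental samples (circles) and the 3 M8 samples (squares), with the mean and SD of each line beside them. Cdk4, Ccnd1 and Ccnd2 have every M8 point above every parental point, while Cdkn2a and Cdkn2b lie at 0 throughout.

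Cdk4 was the most abundant of these transcripts and the one that changed most. It stood at 406.5, 406.5 and 392.9 FPKM in parental samples 1 to 3, and at 526.0, 527.6 and 484.7 FPKM in M8 samples 1 to 3. The lowest M8 sample was therefore well above the highest parental sample. The means were 402 ± 7.88 FPKM and 513 ± 24.4 FPKM (SD, n = 3 each) with a ratio of 1.28, and the log2 fold change was 0.35 (SE 0.044, 95% interval 0.25 to 0.45, limma adjusted p = 0.000929). The p-value of Cdk4 ranked 208th of the 10597 genes, and its mean level 181st. The change passed the threshold in each of the 16 refits with another pseudocount, filter, scaling or variance model, with the replicate block or with 1 sample left out, at log2 fold changes of 0.23 to 0.39. In RNA from a whole culture, fewer cells with a transcript and less RNA per cell cannot be told apart, here and in every comparison that follows. Cdk4 (chr10:127063535-127067288, plus strand) overlaps Tspan31 on the other strand by 641 bases. Tspan31 was at 122 FPKM in the parental line and 117 FPKM in M8 (log2 fold change -0.064, limma adjusted p = 0.235).

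Cdk6, the partner kinase that binds the same cyclins, was the least abundant of the 8 detected genes. Its values were 11.9, 12.2 and 11.6 FPKM in the parental samples and 12.1, 11.6 and 11.6 FPKM in the M8 samples, and the groups overlapped. The log2 fold change was -0.013 (95% interval -0.12 to 0.097, limma adjusted p = 0.863), and it was not called under any of the 16 alternatives. Within each sample the ratio of Cdk4 to Cdk6 was 34.2, 33.5 and 33.7 in the parental line and 43.6, 45.4 and 41.7 in M8. A single scaling factor per library cancels in this ratio, and its 2 groups did not overlap (33.8 ± 0.393 against 43.6 ± 1.86, SD, n = 3 each, exact two-sided permutation p = 0.1, the smallest that 3 samples against 3 allow).

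The start regions of the kinases are shown because they differ in E-boxes (CACGTG), the letters that Myc and its relatives and Usf factors bind. RefSeq promoters of GRCm38.p6, 250 bases before to 50 bases after each annotated start, were matched for 8 of the 10 genes, not for Ccnd1 and Ccnd2, which were also called higher, so the letters were not compared with the changes. They are printed on the gene's own strand with each E-box in capitals, Cdk4 from chr10:127063285-127063584 (plus strand) and Cdk6 from chr5:3343643-3343942 (plus strand). The Cdk6 start used lies inside the annotated span of the gene (chr5:3341004-3531008).
Cdk4: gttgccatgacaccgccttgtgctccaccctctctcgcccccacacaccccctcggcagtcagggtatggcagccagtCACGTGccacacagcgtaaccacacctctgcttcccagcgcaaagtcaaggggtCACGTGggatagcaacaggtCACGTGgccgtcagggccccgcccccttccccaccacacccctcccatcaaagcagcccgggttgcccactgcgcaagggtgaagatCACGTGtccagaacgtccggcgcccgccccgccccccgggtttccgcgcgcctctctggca
Cdk6: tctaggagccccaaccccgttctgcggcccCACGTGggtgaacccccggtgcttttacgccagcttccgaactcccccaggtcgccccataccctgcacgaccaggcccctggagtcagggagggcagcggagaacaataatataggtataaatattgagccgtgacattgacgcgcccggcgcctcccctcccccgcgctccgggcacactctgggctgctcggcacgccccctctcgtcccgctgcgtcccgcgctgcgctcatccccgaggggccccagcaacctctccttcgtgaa
The Cdk4 promoter held 4 E-boxes, whose first bases lay 172, 118, 98 and 11 bases upstream of the start. CACGTG reads the same on both strands, so each copy was counted once. Of all 32817 promoters of this length, 2346 (7.15%) held at least 1 E-box and 8 (0.0244%) held at least 4. The cutoff of 4 is the count of the Cdk4 promoter itself. The Cdk6 promoter held 1 E-box, 220 bases upstream. Among the other promoters, only that of the downstream start of Cdkn2c held one, 34 bases past the start. E2F spellings (TTTCCCGC, TTTCGCGC, TTTGCCGC and TTTGGCGC, either strand) were found in 2.26% of all promoters and, among these genes, only 99 bases upstream of the upstream Cdkn2a start. These matches describe letters in a window, and binding was not measured.

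Among the D-type cyclins, Ccnd1 and Ccnd2 rose slightly and Ccnd3 was not called. Ccnd1 was at 166.8, 173.5 and 180.3 FPKM in the parental line and at 190.8 FPKM in each of the 3 M8 samples. All M8 values were above all parental values, and the parental samples spread more widely. Means were 174 ± 6.75 and 191 ± 0.0107 FPKM (SD, n = 3 each), with a log2 fold change of 0.14 (SE 0.040, 95% interval 0.047 to 0.23, limma adjusted p = 0.0312). Ccnd1 was called in 15 of 16 alternatives. Under quantile normalization its log2 fold change was 0.027 and it was not called (limma adjusted p = 0.574).

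Ccnd2 was at 46.0, 47.2 and 46.1 FPKM in the parental line and 51.0, 51.5 and 48.5 FPKM in M8, so the groups lay close but did not overlap. Its means were 46.4 ± 0.636 and 50.3 ± 1.59 FPKM (SD, n = 3 each), with a log2 fold change of 0.11 (SE 0.041, 95% interval 0.021 to 0.21, limma adjusted p = 0.0674). The call was kept in only 8 of 16 alternatives. It was lost as TPM, under quantile normalization, under upper-quartile scaling, without the variance trend and without parental replicate 1, parental replicate 3, M8 replicate 1 or M8 replicate 2, with limma adjusted p-values from 0.105 to 0.508. The direction stayed upward throughout (log2 fold change 0.039 to 0.14). An antisense gene within Ccnd2, 9330179D12Rik, was at 1.18 FPKM in the parental line and 2.02 FPKM in M8 (limma adjusted p = 0.0162), and whether the counting used the strand is not given in the sources used here.

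Ccnd3 was at 57.6, 65.2 and 67.2 FPKM in the parental line and 60.5, 59.8 and 60.2 FPKM in M8. The M8 values fell inside the parental range. The log2 fold change was -0.070 (95% interval -0.20 to 0.057, limma adjusted p = 0.381). It was called lower under quantile normalization (log2 fold change -0.14, limma adjusted p = 0.066) and without parental replicate 1, its lowest parental sample (log2 fold change -0.14, limma adjusted p = 0.037). The annotation also holds a Ccnd3 pseudogene, with which reads could be shared.

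Within each sample, Ccnd1 made up most of the D-type cyclin transcripts in both lines. Its share of the summed FPKM of the 3 cyclins was 61.3 ± 0.514% in the parental line and 63.3 ± 0.327% in M8 (SD, n = 3 each), without overlap (exact two-sided permutation p = 0.1). The share of Ccnd3 was 21.3, 22.8 and 22.9% in the parental samples and no higher than 20.1% in M8, a difference in means of -2.36 percentage points without overlap (exact permutation p = 0.1, n = 3 each). The share of Ccnd2 overlapped, at 16.4 ± 0.666% and 16.7 ± 0.444% (exact permutation p = 0.6, n = 3 each). These comparisons belonged to 7 ratios fixed together. The adjusted value was 0.14 for the 5 ratios at the smallest possible p, so none could pass in a design of this size.

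Ccne1, which acts after the D-type cyclins, was at 22.8, 22.9 and 21.4 FPKM in the parental line and 21.4, 20.4 and 22.7 FPKM in M8. The groups overlapped, the log2 fold change was -0.055 (95% interval -0.18 to 0.065, limma adjusted p = 0.469), and no alternative called it. Its level relative to the summed D-type cyclins was 7.91 ± 0.576% in the parental line and 7.14 ± 0.423% in M8, again with overlap (exact permutation p = 0.2, n = 3 each).

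**Figure D2:**
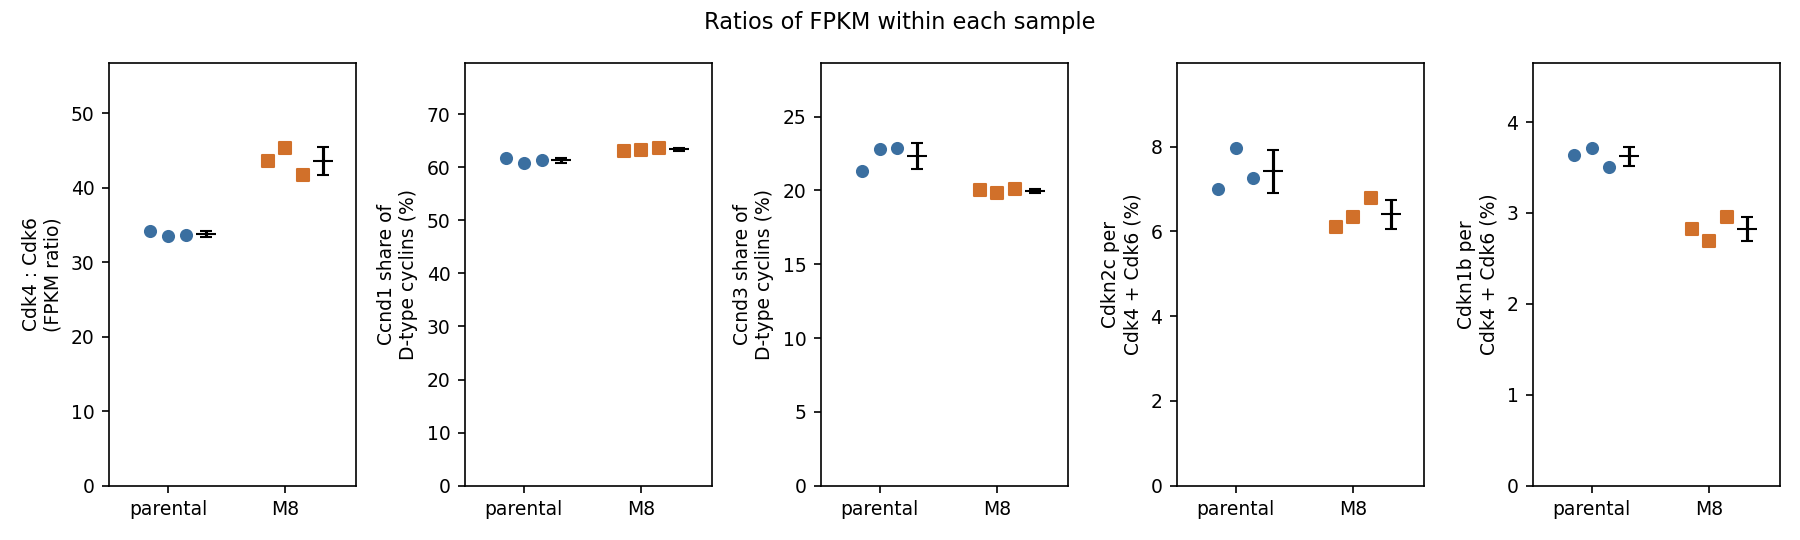
Ratios of FPKM within each sample, for parental samples (circles) and M8 samples (squares) with the mean and SD of each line. From left to right the vertical axes give Cdk4 to Cdk6 as a ratio, the shares of Ccnd1 and Ccnd3 among D-type cyclins in percent, and Cdkn2c and Cdkn1b in percent of Cdk4 plus Cdk6, and in each panel the lines do not overlap.

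Cdkn2a and Cdkn2b, the genes of p16Ink4a, p19Arf and p15, were listed at 0 FPKM in all 3 parental and all 3 M8 samples. They lie side by side on chromosome 4, Cdkn2a at chr4:89274473-89294619 and Cdkn2b at chr4:89306289-89311032 (GRCm38.p6), 11.7 kb apart. No fold change was computed and neither gene entered the limma test. Of all 24346 symbols, 8254 were at 0 in every sample, so a value of 0 is not rare. The files give Cdkn2a as a single symbol, so p16Ink4a and p19Arf have no values of their own.

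How low a value the files could show was read from other genes. In GENCODE, which may not be the annotation behind the values, Cdkn2a has 2 coding transcripts, of 852 and 895 bases. Among 424 genes with a single transcript within 10% of that length, the smallest value above 0 in a sample was 0.00884 to 0.0561 FPKM. For Cdkn2b, with 1 transcript of 1390 bases, 393 such genes had smallest values of 0.0137 to 0.0344 FPKM. Values of about that size could thus be listed for genes of such length. How many reads of Cdkn2a or Cdkn2b would have been listed as a value above 0 is not known. A failed estimate can also be listed at 0, and whether that happened at this locus was not tested. Of 76 cytosolic ribosomal protein genes and 12 RNA polymerase II subunit genes none was at 0 in any sample, and of 39 proteasome subunit genes only Psmb11 and Psma8 were, subunits known from thymus and testis.

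The annotation placed 44 genes with a row, the pair included, whose midpoint lay within 1.5 Mb of the start of Cdkn2a. Of these, 28 were at 0 in all 6 samples, again with the pair included, and 5 had a mean of at least 1 FPKM. All 5 lay on the side of lower coordinates, which held 39 genes, against 3 genes beyond Cdkn2b. The nearest was Mtap, the methylthioadenosine phosphorylase of methionine salvage, 93.4 kb from Cdkn2a, at 63.3 ± 1.10 FPKM in the parental line and 64.3 ± 1.87 FPKM in M8 (SD, n = 3 each). Its 6 values ran from 62.1 to 65.6 FPKM and did not separate the lines (limma adjusted p = 0.718). Beyond it, Klhl9 was at 11.7 and 10.5 FPKM, Mllt3 at 9.31 and 9.28, Focad at 7.41 and 7.83 and Hacd4 at 2.56 and 2.49 in the parental line and M8, and none of the 5 was called. Without parental replicate 3, Klhl9 was called lower (log2 fold change -0.22, limma adjusted p = 0.0351, against -0.14 with all samples). Beyond Cdkn2b, Dmrta1, 393.6 kb from Cdkn2a, was between 0 and 0.0485 FPKM, Zfp352 between 0 and 0.05 FPKM, and the pseudogene Gm12633 at 0 in all samples. Elavl2, outside this window, was at 0 in all samples.

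**Figure D3:**
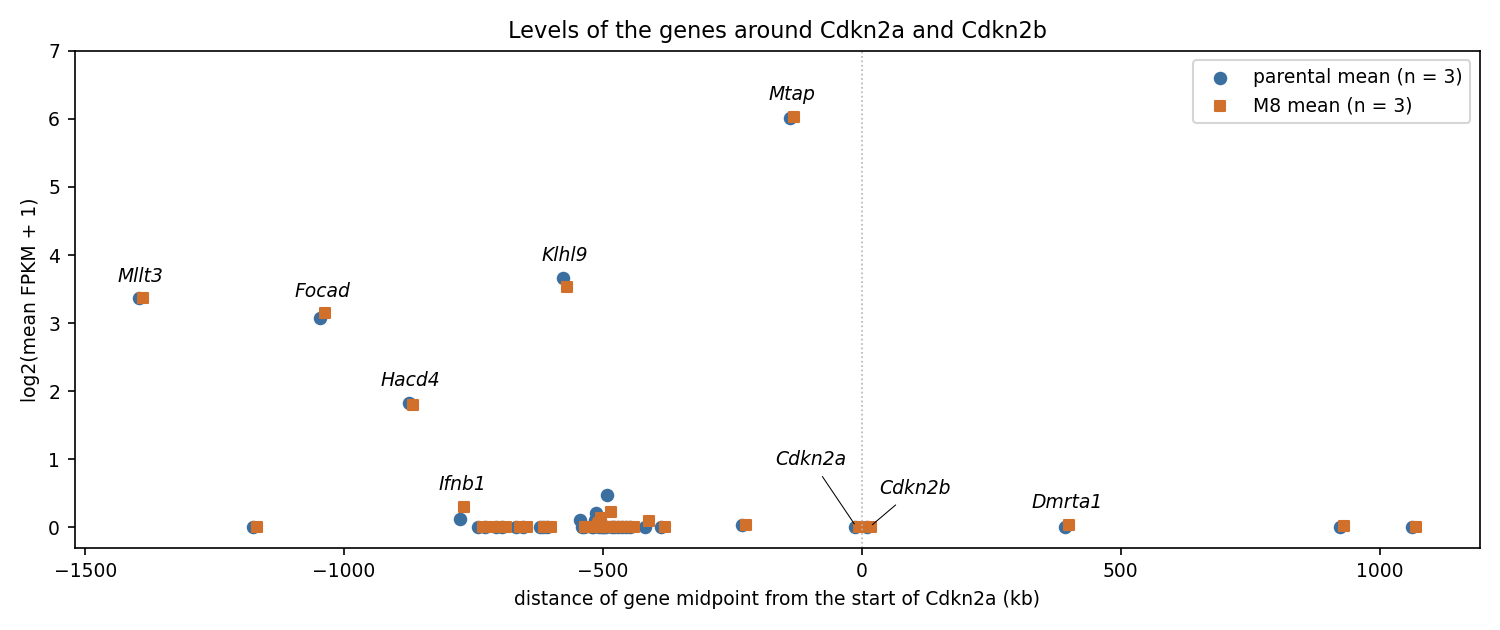
Mean level of each annotated gene around Cdkn2a and Cdkn2b, as log2(mean FPKM + 1) on the vertical axis, against the distance of the gene's midpoint from the start of Cdkn2a in kb, for parental cells (circles) and M8 (squares, n = 3 each). Mtap stands at 63.3 and 64.3 FPKM, while Cdkn2a and Cdkn2b lie at 0 in both lines.

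The INK4 gene that remained among the 10, Cdkn2c, was expressed in both lines. It was at 29.3, 33.4 and 29.4 FPKM in the parental line and 32.8, 34.1 and 33.7 FPKM in M8. Parental sample 2 reached into the M8 range and the other parental samples lay below it. The means were 30.7 ± 2.34 and 33.5 ± 0.659 FPKM (SD, n = 3 each), and the log2 fold change of 0.13 (SE 0.056, upper 95% bound 0.25) missed the threshold (limma adjusted p = 0.122). It was called higher in 1 of 16 alternatives, without parental replicate 2 (log2 fold change 0.19, limma adjusted p = 0.0279). Cdkn2d, the other INK4 gene and not among the 10, was at 43.8, 43.8 and 43.2 FPKM in the parental line and 50.8, 52.5 and 51.2 FPKM in M8. It rose by a log2 fold change of 0.23 (SE 0.038, limma adjusted p = 0.00262) and was called under all 16 alternatives. Of the 4 INK4 genes, Cdkn2c and Cdkn2d thus had values above 0 in both lines, and Cdkn2a and Cdkn2b were listed at 0.

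Cdkn1b, the gene of p27, was at 15.2, 15.6 and 14.2 FPKM in the parental line and 15.2, 14.5 and 14.7 FPKM in M8. The groups overlapped and the log2 fold change was -0.017 (95% interval -0.13 to 0.099, limma adjusted p = 0.829). Cdkn1a, the gene of p21 and a p53 target, was the most abundant inhibitor. It fell from 179 ± 1.76 FPKM to 163 ± 4.75 FPKM (SD, n = 3 each), or by 0.14 on the log2 scale (SE 0.038, limma adjusted p = 0.0253), and was called under all 16 alternatives. Cdkn1c, the gene of p57, was near 0 with values from 0 to 0.0552 FPKM and was not tested.

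Set against the kinases of the same sample, Cdkn2c and Cdkn1b took lower values in M8. Neither gene was itself called, and the denominator was mostly Cdk4, so these percentages largely restate the rise of Cdk4. Cdkn2c amounted to 7.01, 7.98 and 7.27% of the summed FPKM of Cdk4 and Cdk6 in the parental line and to 6.10, 6.33 and 6.78% in M8. Cdkn1b amounted to 3.64, 3.72 and 3.51% in the parental line and to 2.82, 2.69 and 2.96% in M8. In neither did the lines overlap (exact permutation p = 0.1 for each, n = 3 each), and the denominator was 414 ± 8.09 FPKM in the parental line and 525 ± 24.5 FPKM in M8. The sum of the D-type cyclins was 283 ± 11.8 FPKM in the parental line and 301 ± 1.57 FPKM in M8. It amounted to 68.5 ± 3.97% of the kinase sum in the parental line and 57.5 ± 2.45% in M8 (SD, n = 3 each). Cdkn2c and Cdkn2d together amounted to 18.0 ± 0.486% and 16.2 ± 0.791%. These sums and the last 2 ratios were chosen after values were seen and carry no test.

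The rest of the G1/S pathway was taken from lists chosen with earlier results of these data known. Their counts stand beside 21.2% higher and 16.5% lower over all genes tested. Of 7 other G1/S cyclins and kinases, 1 rose and 2 fell. Ccna2, the cyclin A of S phase and G2, rose from 57.0 ± 1.39 to 81.9 ± 1.87 FPKM (log2 fold change 0.51, limma adjusted p = 0.000163). Ccne2, the other E-type cyclin, fell from 7.21 ± 0.319 to 5.04 ± 0.239 FPKM (log2 fold change -0.44, limma adjusted p = 0.00163). Ccnc fell by 0.16 on the log2 scale (limma adjusted p = 0.0651) and kept its call in 12 of 16 alternatives. Cdk2, the kinase partner of E-type and A-type cyclins, was not called (log2 fold change 0.11, limma adjusted p = 0.15).

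Among 13 pocket proteins, E2F and DP factors, 4 rose and 4 fell, with a median log2 fold change of -0.0097. Rb1, the substrate of Cdk4 and Cdk6, was at 8.05, 8.30 and 7.55 FPKM in the parental line and 5.91, 5.75 and 5.64 FPKM in M8. The groups were well apart and the log2 fold change was -0.41 (SE 0.061, limma adjusted p = 0.00187), called under all 16 alternatives. Its relative Rbl2 fell by 0.24 (limma adjusted p = 0.0198), while Rbl1 was not called (log2 fold change -0.0097). Tfdp2, a DNA-binding partner of E2F factors, fell by 0.38 (limma adjusted p = 0.00295), and E2f4, a factor that acts with pocket proteins as a repressor, rose by 0.31 (limma adjusted p = 0.000857). E2f1, an activator, fell by 0.15 (limma adjusted p = 0.0595) and kept its call in 11 of 16 alternatives. The others that rose were E2f7 (0.23, called in all 16), E2f8 (0.13, in 9) and Tfdp1 (0.12, in 12), and only 2 of the 13 were called higher as TPM or under quantile normalization.

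Of 16 E2F target genes, 8 rose and none fell, with a median log2 fold change of 0.093. Under quantile normalization 5 were called higher and 2 lower. The largest changes were those of the thymidine kinase Tk1, from 49.4 ± 1.75 to 61.3 ± 1.69 FPKM (log2 fold change 0.31), and of the replicative helicase subunits Mcm5 (0.28) and Mcm3 (0.22), with limma adjusted p-values of 0.00145, 0.00414 and 0.00699. Of 9 genes for the turnover of G1 cyclins and p27, 3 rose and none fell, and the risers were Skp2 (0.24), Cks1b (0.22) and Rbx1 (0.21), with limma adjusted p-values of 0.0126, 0.00396 and 0.0365. All 3 act in the ubiquitin ligase that marks p27 for degradation. Its other core subunits were not called, Skp1 at a log2 fold change of -0.081 (limma adjusted p = 0.306) and Cul1 at 0.11 (limma adjusted p = 0.113), and Skp1 was called lower as TPM, under quantile normalization and without parental replicate 1. Rbx1 kept its call in 14 of 16 alternatives. Of 14 regulators of the INK4 locus, 12 were tested, 3 rose and 2 fell, shares near those over all genes. Ezh2, a Polycomb methyltransferase, rose by 0.25 (limma adjusted p = 0.00728), Dmtf1, an activator of the Arf promoter, fell by 0.25 (0.00745) and Rnf2, a Polycomb ubiquitin ligase, fell by 0.21 (0.0461). The call of Rnf2 was lost without the filter on low values, without parental replicate 3 and without M8 replicate 1, where the change was -0.14 (limma adjusted p = 0.103, 0.12 and 0.149). The T-box repressor Tbx3 was listed at 0 in all samples.

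All 12 genes of a mitosis list rose in the same comparison, against 21.2% over all genes tested, with a median log2 fold change of 0.45. This list too was chosen with earlier results of these data known, so its count is no independent support. Bub1, a spindle checkpoint kinase chosen after its values were seen, was the weakest of the 12 (log2 fold change 0.18, limma adjusted p = 0.0546) and kept its call in 10 of 16 alternatives. The largest changes were those of Plk1 (0.73), Cdc20 (0.66) and Aurka (0.66), with limma adjusted p-values of 0.000206, 0.000261 and 6.07e-05. Cdk4 rose by 0.35, less than this median, and the part that the mitosis genes or the share of cells in each phase had in the changes of the G1 genes was not tested.

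**Figure D4:**
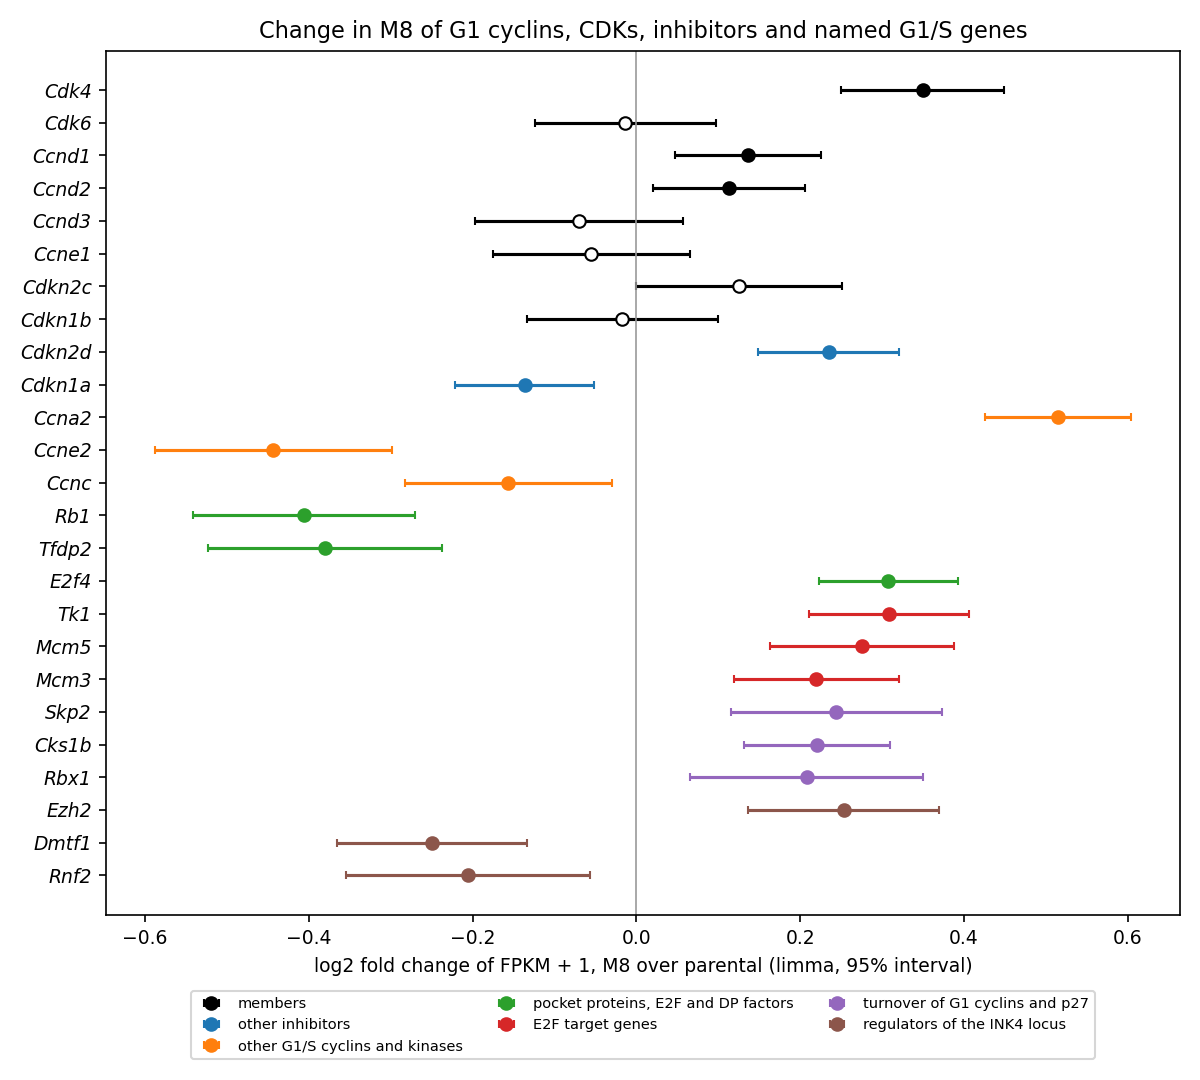
Log2 fold change of FPKM + 1 (horizontal axis, M8 over parental, limma, n = 3 each) with 95% intervals for the 8 tested G1 genes (black, filled where called) and for up to 3 genes of each other G1/S list, those with the largest change among the called ones (coloured by list). Cdk4 at 0.35 stands to the right of the other G1 genes, and Ccne2, Rb1 and Tfdp2 lie farthest to the left.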

How the data were processed

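The authors mapped 101-base single reads from stranded mRNA libraries to mm10 and deposited FPKM values from Cufflinks 2.2.1. The submitters' processing notes list TopHat2 2.1.1, Bowtie2 2.2.8, SAMtools 0.1.18 and Cuffdiff 2.2.1. The gene annotation is not given in the sources used here. From all 6 samples, limma 3.58.1 in R 4.3.3 (lmFit, eBayes with trend, no covariates) was fitted to log2(FPKM + 1), which understates changes of weakly expressed genes. The fit was tested on simulated data. Named genes were the 10, those at 0 and the 3 with the largest change past the threshold in each list, and the 3 nearest in pattern to the gene with the lowest p. Others were named after their values were seen. The 10 genes and the lists were chosen with earlier results of these data known. Skp1 is listed as Skp1a. Alternatives were pseudocounts of 0.1 and 0.5 (0.1 added for ratios), no filter, a mean of at least 5 FPKM, median centring, TPM, quantile and upper-quartile scaling, no trend, a stricter threshold of 0.05, changes of 1.5-fold or more, a replicate block and leaving out each sample. Python 3.11.15, pandas 2.3.3 and matplotlib 3.10.9 served for tables and plots. Coordinates are from RefSeq, GRCm38.p6.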

Additional observations from a re-analysis of the deposited data

How the results depend on the processing

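Of the 10 genes, 3 were called higher in M8, against 1 under quantile normalization and 0 with a fold change of at least 1.5, and 2 to 4 when a sample was left out (4 without parental replicate 2, with Cdkn2c added). The count of those called lower was 0, against 1 under quantile normalization and 0 to 1 when a sample was left out (Ccnd3, without parental replicate 1). Over all genes, 2250 were higher and 1745 lower, against 42 and 74 with a fold change of at least 1.5, and 1609 to 2101 and 1157 to 1672 when a sample was left out, the lowest without M8 replicate 1. Scaling moved the split to 1658 higher and 2209 lower as TPM and 1848 and 2154 under upper-quartile scaling, where the median change over all genes was -0.028 and -0.0181 against 0.0069. When a sample was left out, the change of Cdkn1b ran from -0.0535 to 0.0083 and that of Cdk6 from -0.0301 to 0.0012 (log2), with the sign turned without parental replicate 2 in both, and Cdk6 was at 0.0125 under quantile normalization. Same-numbered samples of the lines did not deviate together (r of 0.1, -0.106 and -0.0326 across genes), so the numbers do not pair them. With a replicate block, 3 of the 10 genes remained higher and 0 lower, and 2171 and 1688 of all genes were called. Of 496 refitted log2 fold changes of 31 named genes, 472 kept direction and call, 18 lost the call, 3 gained it and 3 turned sign. The cause was not tested. Values near 0 are limited by a depth the files do not give.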

Other observations

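Over the 6 samples, the profile of Cdk4 was most like those of Cdc25b, Mlkl and Parp10 among 8546 other genes with a mean of at least 5 FPKM, by the root mean square difference of centred log2(FPKM + 1) values (0.0157, 0.0195 and 0.020). Cdc25b, a phosphatase that activates cyclin-dependent kinases at entry into mitosis, was at 56.0 ± 0.488 FPKM in the parental line and 70.9 ± 2.85 FPKM in M8. Mlkl, the effector of necroptosis, was at 45.8 ± 1.2 and 59.5 ± 2.97 FPKM, and Parp10, a mono-ADP-ribosyltransferase, at 32.1 ± 0.636 and 40.5 ± 1.42 FPKM (SD, n = 3 each).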
